A study of Homo sapiens with 33 samples.

Results

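The transcripts described here encode 10 proteins, called ligands below, through which tumour cells restrain or stimulate immune cells, although NT5E encodes an enzyme. They were taken by gene symbol from an RNA-seq matrix of 58302 genes, and all 10 were found. The matrix holds 33 libraries of 6 established human cell lines. Cells were kept for 9 or 10 days in 1 µM palbociclib, an inhibitor of CDK4 and CDK6, or in 0.1% DMSO, and part of the palbociclib cultures then spent 48 h in medium without drug (washout). Values are counts per 20000000 reads (CP20M), scaled and rounded up by the authors.

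The 4 lines sensitive to palbociclib were derived from malignant pleural mesothelioma (MPM). They were MSTO-211H, NCI-H28, NCI-H2452 and NCI-H2052, and the prefix NCI is left out below. H2052 gave 2 pairs of DMSO and palbociclib libraries and the other sensitive lines 3 pairs each, which makes 11 pairs, and each of the 4 lines gave 1 washout library from the experiment stopped at day 10. The 2 resistant lines were MPP89, from MPM with mutated RB1, and MeT-5A, an SV40-immortalized mesothelial line. MPP89 gave 2 pairs, and MeT-5A gave 1 pair and 1 untreated library, so that MeT-5A alone has no replicate. Each line is a single cell population grown without immune cells, and a repeat is a further culture of it. Where lines were fitted singly or tested for differences among them, the p-values therefore measure the spread between cultures. In fits pooled over lines, that spread also holds differences between lines in their response. The washout fits had 1 library per line and condition, so no repeat culture entered them. Only transcripts were measured, not the proteins at the cell surface.

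Checkpoint ligands sit on the surface of tumour or antigen-presenting cells, or are released by them, and bind receptors on T cells, NK cells and macrophages. Inhibitory ligands such as PD-L1 lower the activity of the cell that carries the receptor, CD47 restrains engulfment by macrophages, and costimulatory ligands such as 4-1BBL do the opposite for T cells. In mesothelioma, antibodies that block the receptor PD-1 are used in treatment, and CD274 transcription in many tumour cells follows interferon-gamma.

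The labels were first compared with marker genes. Of 13 mesothelial markers, 7 to 11 reached 100 CP20M in the libraries of each line, with KRT8 between 3480 and 91185 CP20M. KRT5 did not exceed 22 CP20M, and WT1, CALB2 and PDPN were among 7 markers, besides KRT5, at 0 in at least 1 library. The leukocyte markers PTPRC and CD3E did not exceed 42 and 0 CP20M, and the endothelial markers CDH5, VWF, PECAM1, TEK and KDR reached at most 28, 44, 120, 144 and 269 CP20M. CD14 was the leukocyte marker with the highest value, 1130 CP20M in a palbociclib library of H2452. The summed leukocyte markers reached 465 CP20M in the DMSO libraries of sensitive lines (median 92) and 1205 in their palbociclib libraries (median 85). The summed mesothelial markers ran from 11539 to 98047 CP20M in the 11 DMSO libraries of sensitive lines (median 51331) and from 15373 to 141928 in their palbociclib libraries (median 65991), and their part in the results below was not tested. All 10 proliferation genes of a fixed list (MKI67, CDK1 and others) were called lower with palbociclib over the sensitive lines, where a call asks for a Benjamini-Hochberg FDR under 0.05 in limma and a fold change above 1.5 or below 1/1.5. In a bulk culture, fewer cells with a transcript and less transcript per cell cannot be told apart.

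Stretches upstream of 4 ligand genes are printed here as context, and their part in the results was not tested. PVR and VSIR were higher with palbociclib in all 11 sensitive pairs, CD274 moved in opposite directions between lines, and TNFSF9 shares a motif with CD274. The sequences are from RefSeq (GRCh38.p14), run 5′ to 3′ on the strand of the gene and end before the gene's first base in GENCODE 44. Capitals mark matches to GAAA, any 2 bases and GAAA again, a core bound by interferon regulatory factors (IRF), searched on both strands.
CD274 (chr9:5450292-5450502, + strand, 211 bases): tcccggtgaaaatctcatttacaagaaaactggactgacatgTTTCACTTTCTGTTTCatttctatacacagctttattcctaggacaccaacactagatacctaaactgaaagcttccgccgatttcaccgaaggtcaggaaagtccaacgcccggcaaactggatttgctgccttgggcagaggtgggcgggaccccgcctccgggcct
TNFSF9 (chr19:6530776-6531025, + strand, 250 bases): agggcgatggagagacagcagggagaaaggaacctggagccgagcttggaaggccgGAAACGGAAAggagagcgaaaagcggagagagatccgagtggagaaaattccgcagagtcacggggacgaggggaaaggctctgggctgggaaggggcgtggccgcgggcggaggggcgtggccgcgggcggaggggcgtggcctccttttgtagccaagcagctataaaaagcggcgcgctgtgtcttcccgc
PVR (chr19:44643660-44643797, + strand, 138 bases): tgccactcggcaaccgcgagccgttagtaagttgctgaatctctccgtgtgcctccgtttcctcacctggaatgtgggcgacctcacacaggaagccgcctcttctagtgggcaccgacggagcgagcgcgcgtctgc
VSIR (chr10:71773521-71773770, - strand, 250 bases): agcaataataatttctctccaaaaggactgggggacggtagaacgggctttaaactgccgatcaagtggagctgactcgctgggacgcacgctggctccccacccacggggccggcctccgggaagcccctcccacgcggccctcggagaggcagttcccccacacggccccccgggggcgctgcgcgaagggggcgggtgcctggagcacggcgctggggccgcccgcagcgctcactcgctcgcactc
CD274 held 2 overlapping matches on the minus strand, beginning 208 and 202 bases before the RefSeq start, and TNFSF9 held 1 match beginning 194 bases before it. Of 35116 promoters, 3.02% held this motif in the same 250 bases. No match was found in the other members in the table, which lists 9 of the 10. The E2F letters TTTCCCGC and TTTGGCGC were in none of those 9 and in 1.39% and 0.550% of all promoters, and the NF-kB letters GGGA, any base and TTTCC were in none of the 9 and in 0.527% of all. GGGCGG, the core of SP1 sites, was in 7 of the 9 and in 42.6% of all. Other letters were searched too, with N for any base. The STAT letters TTCNNNGAA were in CD274 alone and in 6.57% of all, and the TEAD letters GGAATG in PVR alone and in 11.9% of all. TTTGAA (CHR), TGANTCA (AP-1) and TTCCNGGAA (GAS) were in none of the 9. PDCD1LG2 is named only.

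The first comparison asked how much of each ligand the lines transcribed without the drug. Under DMSO, 9 of the 10 members differed between the 5 lines with at least 2 DMSO libraries (limma F test on log2(CP20M + 10), FDR under 0.05, with LGALS9 at an adjusted p of 0.191). By the same test 94.3% of the 17803 genes tested differed, so that a difference between lines was the rule in this matrix. Size varied more than the calls: the highest and the lowest line mean (each + 10 CP20M) stood 44.8-fold apart for VSIR, 40.0-fold for CD274 and 35.7-fold for PDCD1LG2, but 2.53-fold for PVR and 1.75-fold for CD276.

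CD274 (ENSG00000120217, chr9:5450503-5470566 in GRCh38) encodes PD-L1, a ligand of PD-1. Its DMSO values were 507 and 592 CP20M in H2052, 53, 73 and 76 in MSTO-211H, 2, 2 and 8 in H28, 35, 82 and 49 in H2452, and 426 and 317 in MPP89. MeT-5A had 493 CP20M untreated and 169 under DMSO. H2052 lay above every other control library, H28 lay below all of them, and the H2452 and MSTO-211H ranges overlapped. At the lowest depth that could be estimated, 1 read was worth 1.57 CP20M, so the H28 control values stand for a few reads each.

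PDCD1LG2 (ENSG00000197646, chr9:5510531-5571282) encodes PD-L2, the second ligand of PD-1, and begins 39964 bases beyond the end of CD274 on the same strand. Under DMSO it had 175 and 165 CP20M in H2052, 83, 86 and 129 in MSTO-211H, 1, 2 and 0 in H28, 86, 101 and 131 in H2452, and 491 and 274 in MPP89. In MeT-5A it had 109 CP20M untreated and 34 under DMSO. H28 was thus the lowest line for both PD-1 ligands, whereas the highest was MPP89 for PDCD1LG2 and H2052 for CD274. The 7 H28 libraries of all conditions held at most 2 CP20M of PDCD1LG2, and 4 of them held 0.

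PVR (ENSG00000073008, chr19:44643798-44666162) encodes CD155, which binds the inhibitory receptors TIGIT and CD96 and the activating receptor CD226. It was present in all 33 libraries at 1462 to 4678 CP20M. Under DMSO it had 2200 and 2801 CP20M in H2052, 1748, 1863 and 2233 in MSTO-211H, 1462, 1683 and 1518 in H28, 1571, 1837 and 1762 in H2452, and 4143 and 3758 in MPP89. MeT-5A had 2204 CP20M untreated and 2046 under DMSO. MPP89 stood apart from the rest, and each other line overlapped its neighbour in the order. PVR shares 121 exonic bases with CEACAM19 and 2028 with the unnamed gene ENSG00000279095 on its own strand in GENCODE 44, where the counting could divide or drop reads.

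VSIR (ENSG00000107738, chr10:71747556-71773520, minus strand) encodes VISTA, an inhibitory B7-family protein first known from blood cells and also present on mesothelial cells. Its DMSO values were 938 and 1517 CP20M in H2052, 230, 192 and 258 in MSTO-211H, 40, 18 and 43 in H28, 574, 844 and 412 in H2452, and 2415 and 1474 in MPP89, against 375 (untreated) and 251 (DMSO) in MeT-5A. MPP89 and H2052 overlapped at the top, and H28 stood apart at the bottom. VSIR lies inside CDH23 on the opposite strand without a shared exonic base, and CDH23 ranged from 7 to 735 CP20M.

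CD276 (ENSG00000103855, chr15:73683966-73714514) encodes B7-H3, a B7-family protein common on solid tumours. It ran from 1341 to 4610 CP20M over the 33 libraries, and its DMSO mean was 3123 ± 194 CP20M in H28 (SD, n = 3) and 1780 ± 621 in MPP89 (SD, n = 2). Its control values in MeT-5A, 2600 CP20M untreated and 2856 under DMSO, came next below H28. H2452, MSTO-211H, H2052 and MPP89 overlapped in a row. CD47 (ENSG00000196776, chr3:108043091-108091862, minus strand), the ligand of SIRPA on macrophages, had a DMSO mean of 2550 ± 367 CP20M in MSTO-211H and 1950 ± 668 in H2452 (SD, n = 3 each), 2290 ± 264 in H2052 and 850 ± 65.8 in MPP89 (SD, n = 2 each), and 658 ± 65.7 in H28 (SD, n = 3). MSTO-211H, H2052 and H2452 overlapped, and all their libraries lay above those of MPP89 and H28. In MeT-5A, CD47 had 819 CP20M untreated and 1145 under DMSO.

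NT5E (ENSG00000135318, chr6:85449584-85495791) encodes CD73, the surface enzyme that turns AMP into adenosine, which inhibits T cells. It had 7450 and 6321 CP20M in MPP89, 3050, 3481 and 3920 in H2452, 1566 and 1280 in H2052, 633, 448 and 946 in MSTO-211H, and 400, 222 and 878 in H28. MeT-5A had 950 CP20M untreated and 914 under DMSO. MPP89, H2452 and H2052 formed 3 separate steps, and MeT-5A, MSTO-211H and H28 overlapped below them.

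The costimulatory members ran differently. TNFSF9 (ENSG00000125657, chr19:6531026-6535924), which encodes 4-1BBL, had 574, 458 and 825 CP20M in H28, 246, 147 and 228 in H2452, 135 and 145 in H2052, 83, 62 and 85 in MSTO-211H, and 45 and 29 in MPP89. MeT-5A had 130 CP20M of it untreated and 85 under DMSO. H28, lowest for 7 of the 10 members, was highest for TNFSF9, ICOSLG and CD276. ICOSLG (ENSG00000160223, chr21:44215382-44241446, minus strand), the ligand of ICOS, had 132, 174 and 214 CP20M in H28, 148 and 104 in MPP89, 142 and 77 in H2052, 41, 41 and 46 in H2452, and 34, 37 and 28 in MSTO-211H, against 31 (untreated) and 17 (DMSO) in MeT-5A. The H28, MPP89 and H2052 ranges overlapped. FP565260.3, a second ICOSLG-like gene model at 7 to 302 CP20M, can share reads with ICOSLG, which makes the level of ICOSLG uncertain.

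LGALS9 (ENSG00000168961, chr17:27629798-27649560) encodes galectin-9, a ligand of TIM-3, and had the lowest median of the members, 21 CP20M over the 33 libraries. It ranged from 5 to 104 CP20M, reached 100 in 1 of the 33 libraries, a palbociclib library of MSTO-211H, and passed the filter through that library. Its DMSO mean was 24.5 ± 2.12 CP20M in H2052 (SD, n = 2), the highest, and 7.67 ± 2.31 in H28 (SD, n = 3), the lowest, and each line's range overlapped that of the next in the order. Its copies LGALS9B and LGALS9C did not exceed 5 and 17 CP20M.

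**Figure D1:**
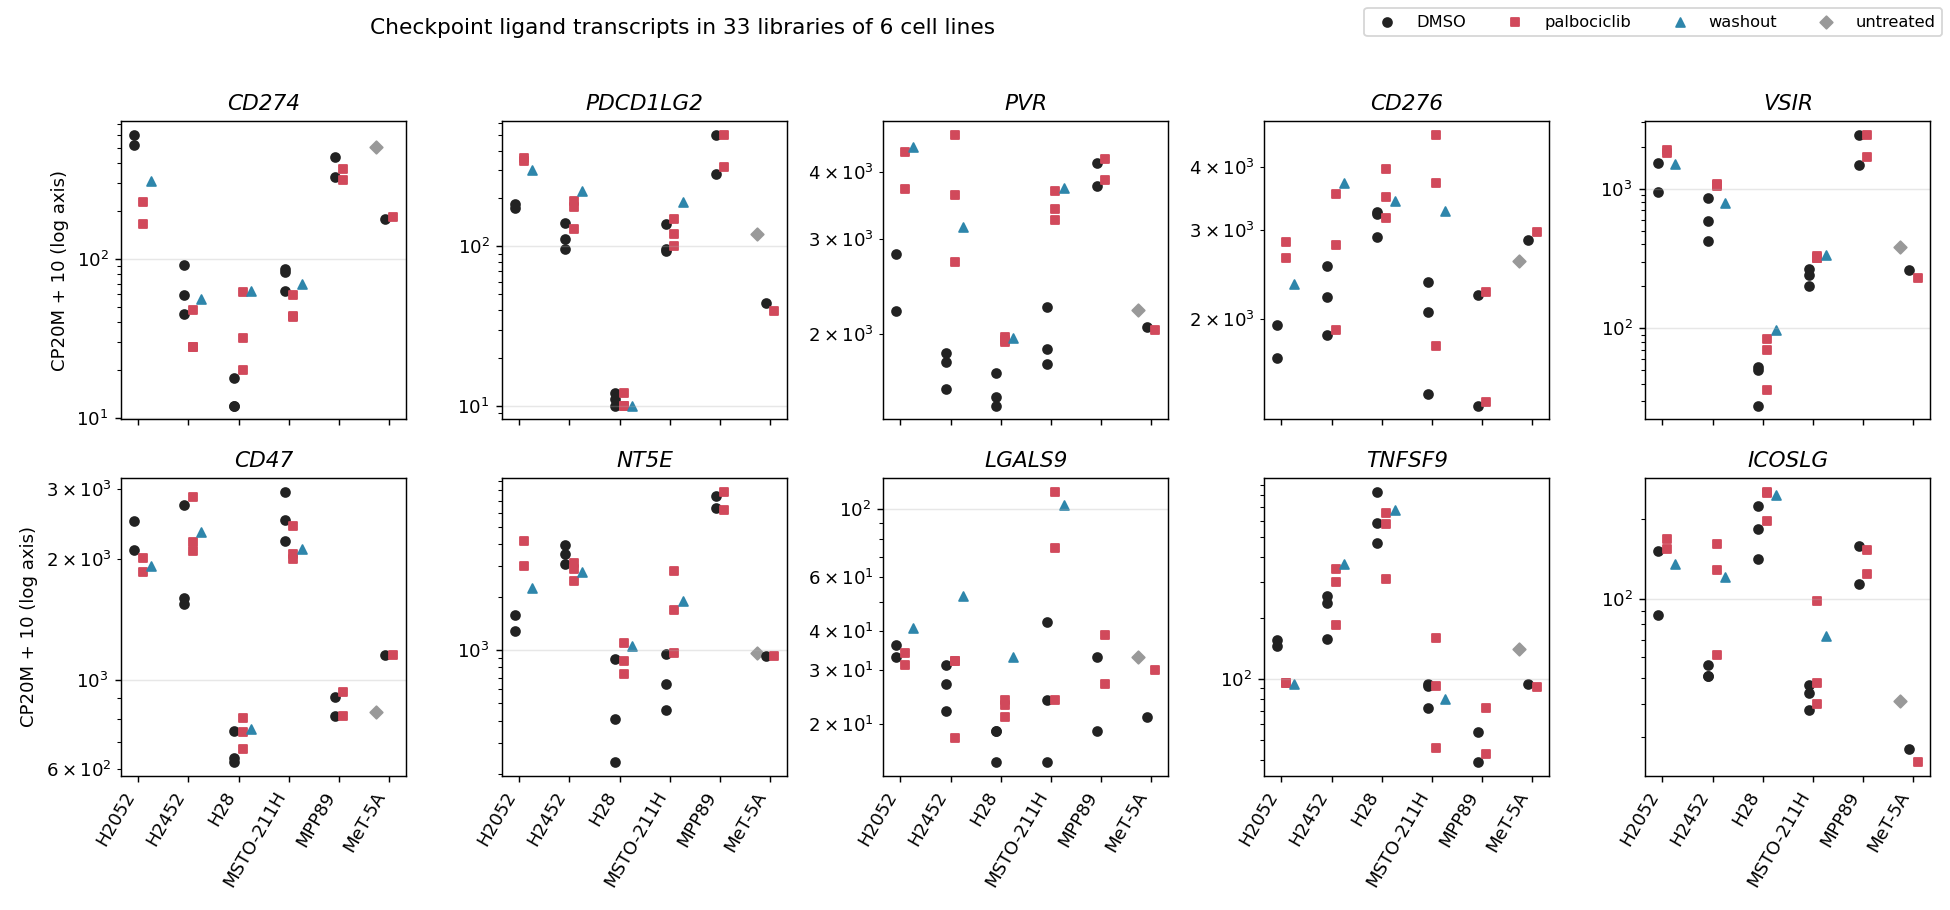
Each panel shows 1 ligand in CP20M + 10 on a log axis for the 6 cell lines, with 1 point per library (circles DMSO, squares palbociclib, triangles washout, diamond untreated). Among DMSO libraries, H28 holds the lowest CD274, PDCD1LG2 and VSIR values and the highest TNFSF9 values, and CD276 spans 1341 to 4610 CP20M over all libraries.

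Per kilobase of annotated exon, the order of the ligands within a line could be compared. CD276 led in H2052 (329 CP20M per kb), MSTO-211H (355), H28 (570) and MeT-5A (498), and NT5E led in MPP89 (1519) and H2452 (769). PVR lay between 149 and 379 CP20M per kb in the 6 lines and ranked 2 to 4. LGALS9 and ICOSLG took the bottom ranks in each line other than H28, where CD274 and PDCD1LG2 (0.974 and 0.411 CP20M per kb) were lower. The rank of ICOSLG rests on its annotated exon length of 19441 bases, against 10427 for PVR and 1634 for TNFSF9. Before division by length, ICOSLG lay above LGALS9 in each line.

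No member separated the resistant lines from the sensitive ones. Both resistant line means lay above all 4 sensitive means for 0 of the 10 members, against 13.3% of the 17803 genes, and below them for 0 of 10, against 6.47%. With 2 lines against 4, no test was made.

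The second comparison asked what palbociclib did to the ligands in the sensitive lines. PVR, VSIR, NT5E and ICOSLG were called higher over the 11 pairs and no member was called lower. Of all genes tested, 5.58% were called higher and 9.37% lower. The median log2 fold change was 0.42 over the members and -0.11 over all genes with scaling to the library total, and 0.58 and 0.06 with median-of-ratios scaling, so that the members' shift stands against a general fall that depends on the scaling. CD276 and PDCD1LG2 passed the FDR but not the fold limit, and with no fold limit 6 members were higher, against 14.6% of all genes.

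PVR, a ligand of TIGIT, was higher with palbociclib in every sensitive pair. Its palbociclib values were 3714 and 4350 CP20M in H2052, 3249, 3410 and 3675 in MSTO-211H, 1921, 1968 and 1940 in H28, and 2709, 4678 and 3616 in H2452. Within each of these lines, every palbociclib library exceeded every DMSO library, and the pair differences ran from 0.22 to 1.34 on the log2 scale. The fitted log2 fold change was 0.73 ± 0.09 (SE, 95% interval 0.53 to 0.92, limma adjusted p = 3.75e-05, higher in 11 of 11 pairs), and the call held in all 24 alternatives. The size of the rise was not the same in the 4 lines (adjusted p = 0.0106, limma F test), with 1.05 ± 0.12 (SE) in H2452 and 0.32 ± 0.06 in H28. Without the block that difference was lost (limma adjusted p = 0.101).

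VSIR rose in the same number of pairs from a lower level. Its palbociclib values were 1803 and 1894 CP20M in H2052, 309, 310 and 320 in MSTO-211H, 74, 26 and 60 in H28, and 1062, 1045 and 1036 in H2452. The DMSO and palbociclib ranges overlapped in H28 alone among the sensitive lines. The log2 fold change was 0.60 ± 0.10 (SE, limma adjusted p = 0.000317, higher in 11 of 11 pairs), just beyond the fold limit, and 5 of 24 alternatives moved it below that limit, among them leaving out H2452 (0.52). A difference of the response by line was not found for VSIR (adjusted p = 0.573, limma F test).

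NT5E ran higher in 3 lines and lower in the fourth. It went from 1566 and 1280 to 4109 and 2966 CP20M in H2052, from 633, 448 and 946 to 2785, 950 and 1683 in MSTO-211H, and from 400, 222 and 878 to 861, 724 and 1084 in H28. In H2452 it went from 3050, 3481 and 3920 to 2453, 3099 and 2877 CP20M, lower in all 3 pairs, with a log2 fold change of -0.31 ± 0.07 (SE, limma adjusted p = 0.0451) inside the fold limit. Over the 4 lines the log2 fold change was 0.79 ± 0.22 (SE, limma adjusted p = 0.00937, higher in 8 of 11 pairs), and the lines differed in their response (adjusted p = 0.0116, limma F test, but 0.117 without the block). The call was lost with line means as units (adjusted p = 0.0843) and without H2052 (0.0526), H28 (0.0588) or MSTO-211H (0.0764), each by limma, and the log2 fold change was 1.21 without H2452.

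ICOSLG was called at the edge of the fold limit. It held 144 and 158 CP20M with palbociclib in H2052, 30, 38 and 88 in MSTO-211H, 242, 188 and 245 in H28, and 119, 51 and 152 in H2452. Palbociclib and DMSO ranges were apart in H2052 and H2452 and overlapped in the other 2 lines. The log2 fold change was 0.59 ± 0.17 (SE, limma adjusted p = 0.0131, higher in 10 of 11 pairs), and 8 of 25 alternatives ended the call, among them leaving out H2452 (0.42, adjusted p = 0.0886). FP565260.3 rose by a like amount (0.63 ± 0.11, adjusted p = 0.000394), and the sum of both gave 0.66 (adjusted p = 0.00425), an alternative chosen after the data were seen.

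CD276 was higher in 11 of 11 pairs, at 2627 and 2825 CP20M with palbociclib in H2052, 4610, 1757 and 3708 in MSTO-211H, 3468, 3158 and 3952 in H28, and 2795, 1895 and 3514 in H2452. Replicate 2 was low under both treatments in H2452 and MSTO-211H, and outside H2052 the ranges of DMSO and palbociclib overlapped. The log2 fold change was 0.42 ± 0.09 (SE, limma adjusted p = 0.00217), below the fold limit, and 0.62 with median-of-ratios scaling, above it. PDCD1LG2 gave 0.35 ± 0.13 (SE, limma adjusted p = 0.0352, higher in 9 of 11 pairs). Without H2052 it gave 0.21 and did not pass the FDR (limma adjusted p = 0.163). It went from 175 and 165 to 335 and 350 CP20M in H2052 and reached 109, 91 and 139 CP20M in MSTO-211H and 118, 182 and 166 in H2452. In H28 it stayed at 0 to 2 CP20M, and its response varied by line (adjusted p = 0.0292, limma F test). That difference among lines was lost in 8 of 19 alternatives, with a limma adjusted p of 0.117 without the block, 0.416 with a pseudocount of 1 and 0.0760 or 0.113 without either H2052 pair.

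CD274 had no common direction. It fell from 507 and 592 to 155 and 218 CP20M in H2052 and from 35, 82 and 49 to 18, 38 and 18 in H2452. In MSTO-211H it went from 53, 73 and 76 to 34, 33 and 49, lower in 3 of 3 pairs, and in H28 from 2, 2 and 8 to 22, 10 and 52, higher in 3 of 3 pairs. The 2 ranges did not overlap in H2052, H28 or MSTO-211H. Over the 11 pairs the log2 fold change was -0.35 ± 0.30 (SE, limma adjusted p = 0.36, lower in 8 pairs and higher in 3), and the F test for a difference among lines gave a limma adjusted p of 0.000394. CD274, NT5E, PVR and PDCD1LG2 were the 4 members with such a difference, against 37.1% of all genes. Without H28 the log2 fold change was -0.97 and was called lower (limma adjusted p = 0.000665), whereas it was -0.086 without H2052, -0.14 without H2452 and -0.23 without MSTO-211H, with no call.

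**Figure D2:**
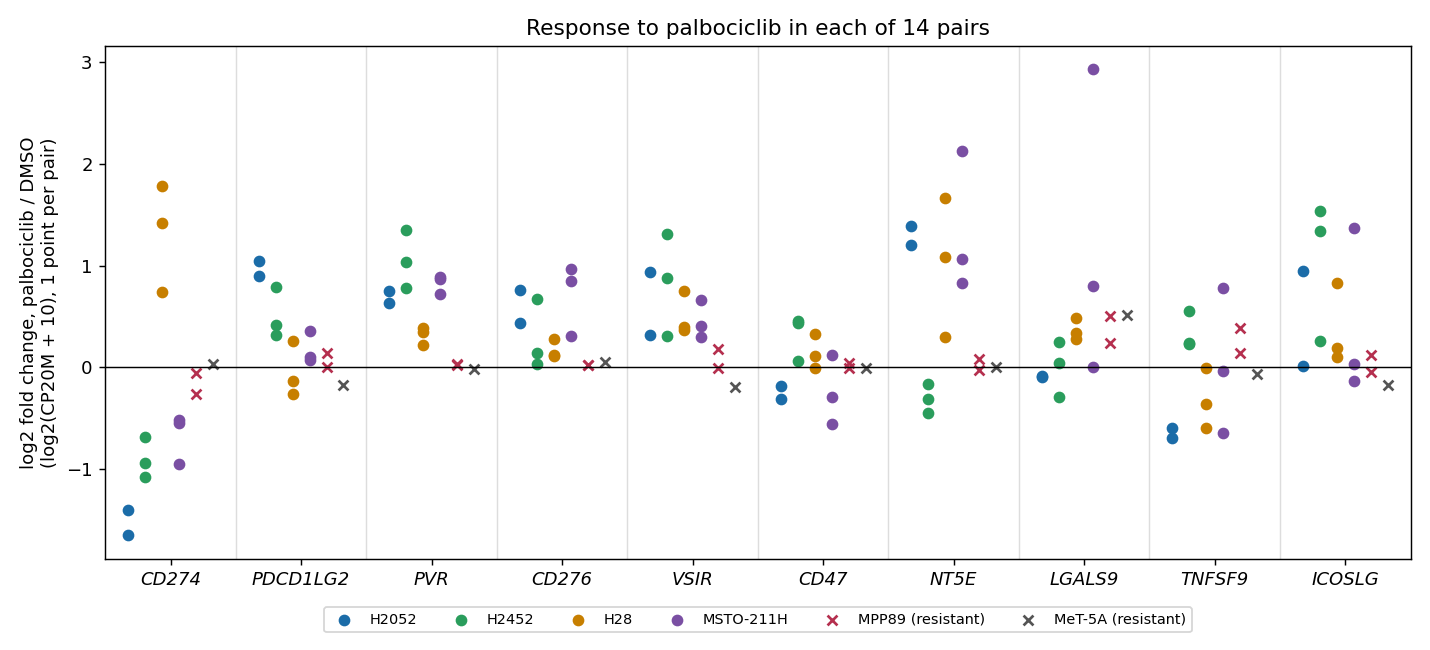
The log2 fold change of palbociclib over DMSO on the log2(CP20M + 10) scale is plotted for each ligand, with 1 point for each of 14 pairs, coloured by line (crosses for resistant lines). All sensitive points of PVR, VSIR and CD276 lie above 0, and the CD274 points run from -1.65 in H2052 to 1.78 in H28.

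The lines were also fitted singly. In H2052, CD274 was called lower (log2 fold change -1.52 ± 0.14, SE, adjusted p = 0.0376), and NT5E (1.30 ± 0.09, 0.0359), PDCD1LG2 (0.97 ± 0.14, 0.0417) and PVR (0.69 ± 0.08, 0.0387) were called higher by limma, against 4.67% of genes higher and 13% lower. In H2452, CD274 was called lower (-0.90 ± 0.12, adjusted p = 0.0189) and PVR higher (1.05 ± 0.12, 0.0167) by limma, against 10.8% lower and 6.04% higher. In H28 the limma fit called CD274 alone, as higher (1.31 ± 0.23, adjusted p = 0.0368), against 5.89% higher and 7.34% lower. In MSTO-211H it called PVR alone, as higher (0.83 ± 0.08, adjusted p = 0.0349), against 5.9% higher and 7.94% lower, and CD274 stood at -0.67 ± 0.17 (adjusted p = 0.0660). The calls in H28 and MSTO-211H and that of CD274 in H2452 were lost when any 1 of the 3 pairs of that line was left out. PVR in H2452 was lost without replicate 1 (limma adjusted p = 0.125) or 3 (0.0940). With 2 pairs in H2052, all 4 calls there were lost without trend, those of CD274, PDCD1LG2 and PVR also with no filter, that of PVR without the block (limma adjusted p = 0.0571) and that of PDCD1LG2 with a pseudocount of 1 (0.0512).

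Some calls from 2 or 3 pairs turned on the settings. Those of PVR in H2452 and MSTO-211H were lost only when a pair was left out. The CD274 call in H28 rests on values of at most 52 CP20M. That call was lost without any of its pairs (limma adjusted p 0.0512 to 0.222) and without the pairing (0.0987). It was also lost with a pseudocount of 50 (0.0600) and with no filter on low values. The CD274 direction held in every line and alternative where it was fitted, and its calls in H2052 and H2452 were lost in 2 of 9 and 5 of 11 alternatives.

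In the resistant lines 0 of the 10 members and 0% of all genes were called in either direction over the 3 pairs (limma), and the same held for MPP89 alone. At an unadjusted p under 0.05, 1 member and 1258 of 17803 genes passed. That member was LGALS9, with 9, 23 and 11 CP20M under DMSO and 17, 29 and 20 with palbociclib (log2 fold change 0.42 ± 0.11, SE, adjusted p = 0.689). PVR went from 4143 and 3758 to 4211 and 3856 CP20M in MPP89 and from 2046 to 2025 in MeT-5A, a log2 fold change of 0.02 with a 95% interval of -0.06 to 0.09. NT5E went from 7450 and 6321 to 7871 and 6220 CP20M in MPP89 and from 914 to 915 in MeT-5A, and CD274 from 426 and 317 to 355 and 305 and from 169 to 173. VSIR went from 2415 and 1474 to 2408 and 1674 CP20M in MPP89 and from 251 to 219 in MeT-5A, and ICOSLG from 148 and 104 to 143 and 114 and from 17 to 14. The 95% interval of the VSIR change over the resistant pairs was -0.18 to 0.18 and that of ICOSLG -0.30 to 0.24.

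Whether the response differed between the classes was tested as an interaction over all 14 pairs. PVR was the 1 member called, with a difference of 0.71 ± 0.18 (SE, limma adjusted p = 0.0239), against 1.13% of genes called higher and 5.62% called lower. VSIR gave 0.61 ± 0.20 (limma adjusted p = 0.0675) and NT5E 0.77 ± 0.44 (limma adjusted p = 0.278). VSIR was called with median-of-ratios scaling (0.82, limma adjusted p = 0.0324) and with upper-quartile scaling (0.81, 0.0363). The PVR call was lost without any 1 of the 3 resistant pairs (limma adjusted p 0.105 to 0.120) and with no filter on low values (0.0511). The difference itself was 0.70 to 0.72 without single resistant pairs and 0.71 with no filter.

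**Figure D3:**
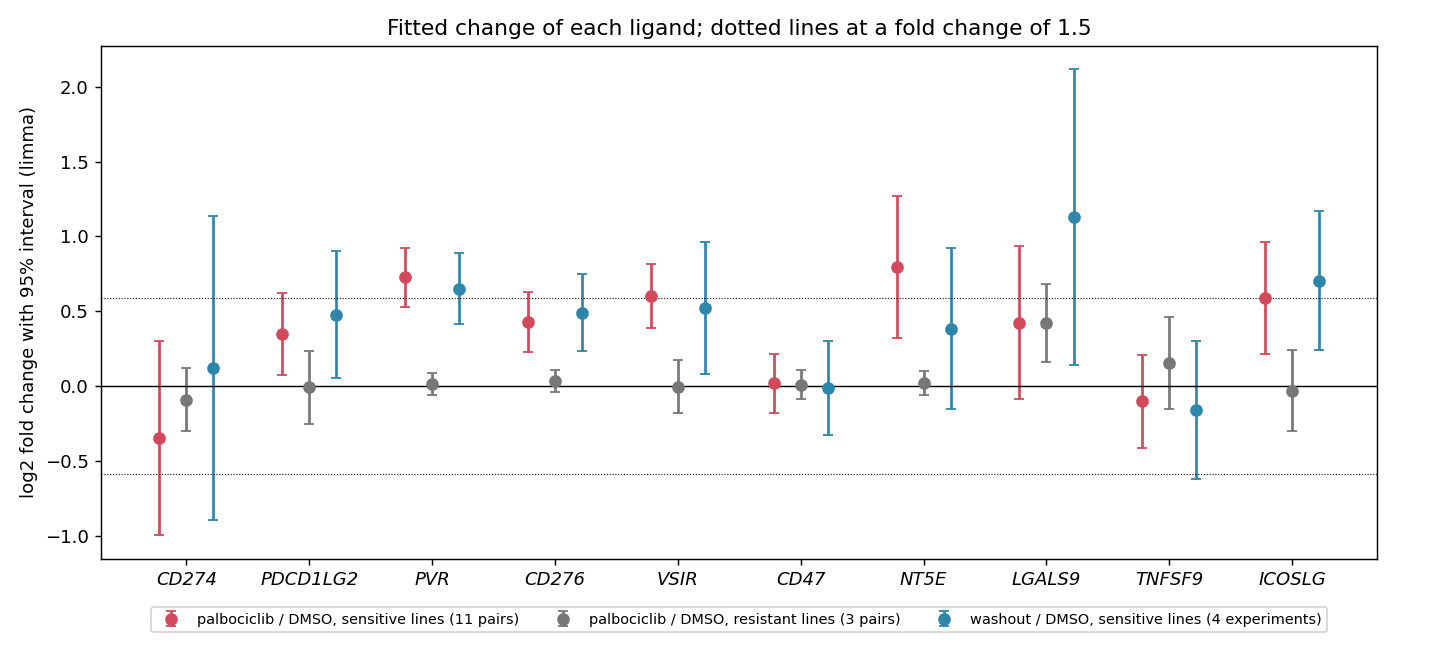
Fitted log2 fold changes from limma with 95% intervals are shown for palbociclib over DMSO in sensitive lines (red, 11 pairs) and resistant lines (grey, 3 pairs) and for washout over DMSO (blue, 4 experiments), with dotted lines at a fold change of 1.5. The PVR interval is 0.53 to 0.92 in sensitive lines and -0.06 to 0.09 in resistant lines.

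The third comparison asked whether the ligands returned after removal of the drug. At 48 h of washout, 0 of the 10 members were called against palbociclib (limma), and 0 members passed an unadjusted p under 0.05. Over all genes 1.4% were called higher and 0% lower. The absence of calls among 10 members thus lies near the share over all genes and does not show that levels stayed equal. Of the 10 proliferation genes, 8 were called higher in the same contrast. Each line gave 1 washout library, and the fit took the 4 lines as blocks, with DMSO, palbociclib and washout libraries of the same day-10 experiment. The labels list no DMSO or palbociclib library after the further 48 h. Removal of the drug and the added time in culture therefore cannot be told apart.

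PVR stayed near its palbociclib level. In H2052 it had 2801 CP20M under DMSO, 4350 with palbociclib and 4450 after washout, and in MSTO-211H 2233, 3675 and 3725. In H28 it had 1518, 1940 and 1956 CP20M and in H2452 1762, 3616 and 3156. Washout exceeded palbociclib in 3 of 4 lines and DMSO in 4 of 4. Against DMSO the log2 fold change was 0.65 ± 0.10 (SE, limma adjusted p = 0.00832), the only call among the members, where 2.81% of genes were called higher and 2.95% lower. This contrast shares its fit and its washout libraries with washout against palbociclib, and its DMSO libraries with palbociclib against DMSO. The call was lost without H2052 (adjusted p = 0.0629) or MSTO-211H (0.0662).

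CD276 (0.49 ± 0.12, SE, limma adjusted p = 0.0280) passed the FDR against DMSO without the fold limit, and ICOSLG (0.70 ± 0.21, adjusted p = 0.0565) did not pass the FDR. ICOSLG went from 77 to 158 to 126 CP20M in H2052, from 46 to 152 to 111 in H2452, from 214 to 245 to 237 in H28 and from 28 to 88 to 62 in MSTO-211H, so that washout lay between the other 2 in all 4 lines. VSIR went from 1517 to 1894 to 1494 CP20M in H2052 and from 412 to 1036 to 782 in H2452, but from 43 to 60 to 87 in H28 and from 258 to 320 to 325 in MSTO-211H. Its log2 fold change against DMSO was 0.52 ± 0.20 (SE, limma adjusted p = 0.114).

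CD274 was above its palbociclib value after washout in 4 of 4 lines and below its DMSO value in 3. It went from 592 to 218 to 300 CP20M in H2052, from 49 to 18 to 46 in H2452, from 76 to 49 to 60 in MSTO-211H and from 8 to 52 to 53 in H28. The change from palbociclib was 0.43 ± 0.45 (SE, 95% interval -0.59 to 1.44, limma adjusted p = 0.769), too wide to place it. NT5E went from 1280 to 2966 to 2230 CP20M in H2052, from 3920 to 2877 to 2770 in H2452, from 878 to 1084 to 1049 in H28 and from 946 to 1683 to 1883 in MSTO-211H, and its change from palbociclib was -0.09 ± 0.24 (SE, 95% interval -0.62 to 0.45).

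The remaining members are given by their washout values. CD276 had 2332 CP20M in H2052, 3256 in MSTO-211H, 3418 in H28 and 3698 in H2452, above DMSO in 4 of 4 lines and below palbociclib in 3. PDCD1LG2 had 294, 179, 0 and 214 CP20M in the same order, above DMSO in 3 lines and at 0 in both in H28, and its log2 fold change against DMSO was 0.48 ± 0.19 (SE, limma adjusted p = 0.128). LGALS9 had 31, 93, 23 and 42 CP20M, above DMSO in 4 of 4 lines, with a log2 fold change of 1.13 ± 0.44 (SE, limma adjusted p = 0.124) that was 0.58 without MSTO-211H.

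CD47 after washout had 1916, 2108, 743 and 2330 CP20M, and TNFSF9 had 85, 70, 666 and 358, each in the order H2052, MSTO-211H, H28 and H2452. CD47 lay above DMSO in 2 lines and below it in 2, and TNFSF9 lay above it in 1 and below it in 3. Their log2 fold changes against DMSO were -0.01 ± 0.14 and -0.16 ± 0.21 (SE, limma adjusted p = 0.964 and 0.651).

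**Figure D4:**
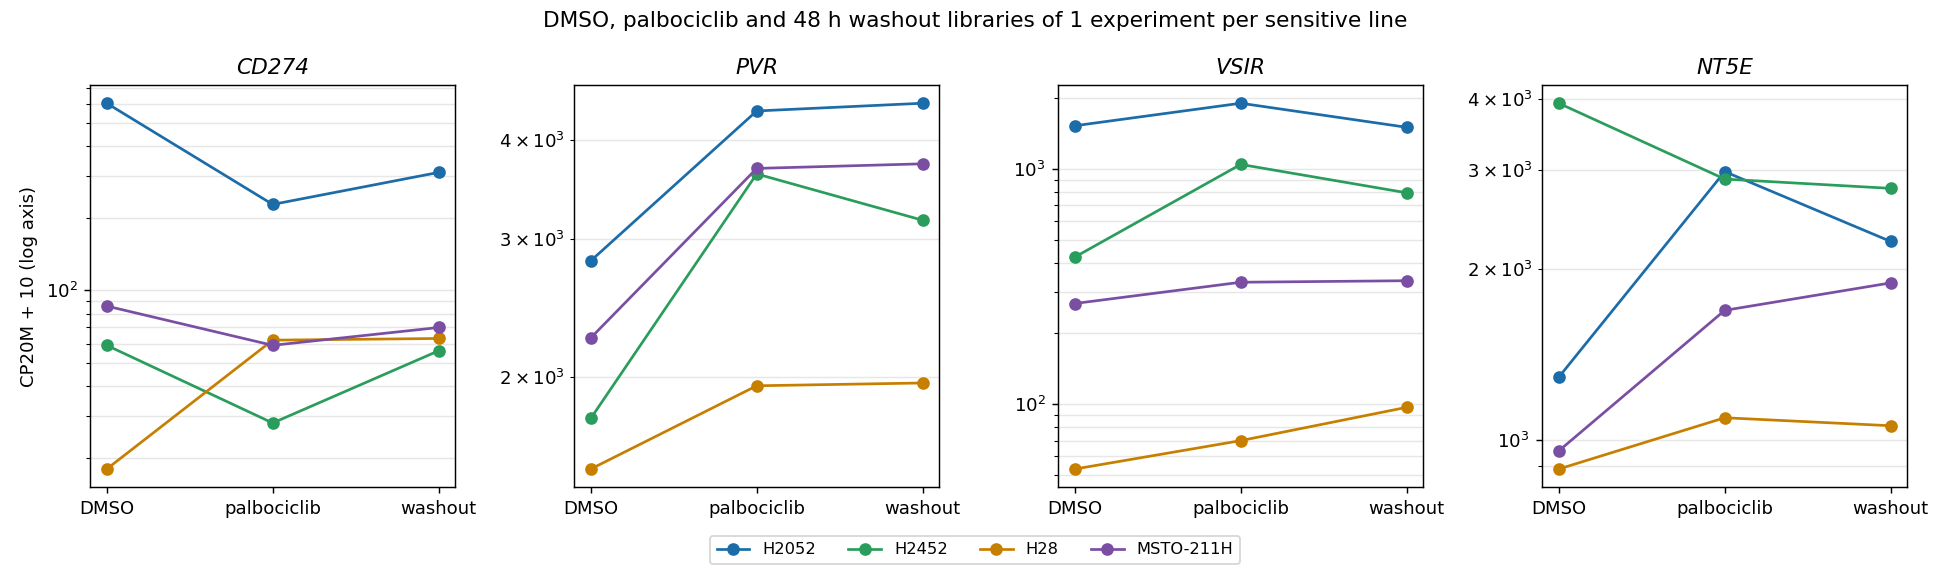
CD274, PVR, VSIR and NT5E are plotted in CP20M + 10 on a log axis for the DMSO, palbociclib and 48 h washout libraries of 1 experiment in each sensitive line. PVR stays above its DMSO value in all 4 lines after washout, and CD274 lies above its palbociclib value in all 4, by 1 CP20M in H28.

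The other 3 members moved little or unevenly over the sensitive lines. CD47 had 1852 and 2001 CP20M with palbociclib in H2052, 2412, 1994 and 2048 in MSTO-211H, 661, 791 and 732 in H28, and 2086, 2844 and 2193 in H2452. The palbociclib values lay below the DMSO range in H2052 and overlapped it elsewhere. CD47 gave a log2 fold change of 0.02 ± 0.09 (SE, 95% interval -0.18 to 0.22, limma adjusted p = 0.890). It was higher in 6 pairs and lower in 5, with both H2052 pairs lower and all 3 H2452 pairs higher. TNFSF9 gave -0.10 ± 0.14 (SE, limma adjusted p = 0.584), and it was lower in both H2052 pairs (135 to 86 and 145 to 86 CP20M) and higher in all 3 H2452 pairs (246 to 290, 147 to 175 and 228 to 339). The sign of CD47 flips with line means as units and without H2452 or H28, and that of TNFSF9 flips with both other scalings and without H2052. In H28, where TNFSF9 was highest, it went from 574, 458 and 825 to 572, 301 and 642 CP20M, and in MSTO-211H from 83, 62 and 85 to 150, 36 and 83. LGALS9 had 21 and 24 CP20M with palbociclib in H2052, 14, 65 and 104 in MSTO-211H, 13, 11 and 14 in H28, and 8, 22 and 22 in H2452, and the DMSO range was exceeded by every library in H28 alone. LGALS9 gave 0.42 ± 0.24 (SE, limma adjusted p = 0.156), with its largest pair difference in MSTO-211H, from 5 to 104 CP20M, and 0.17 without that pair.

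The genes around the members were counted in lists written by function. Of 28 other checkpoint and costimulatory ligands, 22 passed the filter, 4 were called higher and 0 lower over the sensitive lines. Of all tested genes, 5.58% were called higher and 9.37% lower in this fit, the background for each list. The largest were CD24, the ligand of Siglec-10 (0.94 ± 0.29, SE, limma adjusted p = 0.0167), and HLA-G, a ligand of inhibitory receptors on NK cells (0.84 ± 0.10, adjusted p = 2.57e-05). CD80 and CD86, the ligands of CD28 and CTLA4, did not exceed 20 and 4 CP20M. Their list had a median log2 fold change of 0.16, against -0.11 over all genes.

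Of 13 receptors of the members, 4 passed the filter, with a median log2 fold change of 0.30. PDCD1, TIGIT, ICOS and CTLA4 did not exceed 8, 4, 2 and 2 CP20M. SELPLG, which encodes PSGL-1, a binding partner of VISTA, was the 1 receptor called higher (1.40 ± 0.16, SE, limma adjusted p = 2.09e-05), at 4 to 242 CP20M. TNFRSF9, the receptor of 4-1BBL, ranged from 2 to 1030 CP20M.

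Of 14 adenosine pathway genes, 11 passed the filter, 1 was called higher and 2 lower, against 5.58% and 9.37% of all tested genes. Their median log2 fold change was -0.27. DPP4, a surface peptidase that binds adenosine deaminase, rose (2.43 ± 0.35, SE, limma adjusted p = 9.85e-05), and SLC29A2, a nucleoside transporter, fell (-0.77 ± 0.17, adjusted p = 0.00269). Of 8 NKG2D ligands, 5 passed the filter (median log2 fold change 0.04) and ULBP2 alone was called, as higher (0.86 ± 0.14, limma adjusted p = 0.000272).

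Of 13 regulators of PD-L1 and CD47 protein, whose median log2 fold change was -0.17, 2 were called higher and 0 lower. They were CCND1, which encodes cyclin D1 (1.19 ± 0.10, SE, limma adjusted p = 2.46e-06), and QPCTL, the enzyme that modifies CD47 for SIRPA binding (0.60 ± 0.09, adjusted p = 0.000145), while CD47 itself was not called.

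The members with the most similar profiles over the 33 libraries were VSIR and PDCD1LG2 (Pearson r = 0.94 on log2(CP20M + 10)), followed by VSIR and NT5E (0.83). TNFSF9 ran against PDCD1LG2 (-0.74) and CD274 (-0.66). The 33 libraries come from 6 lines and are not independent, so that these values carry no p. How far they describe levels of lines was not tested. Over all tested genes, PDCD1LG2 was nearest to ABLIM3 and MSLN (0.96 each), TNFSF9 to CD70 (0.94), CD274 to SNX15 and TMEM25 (0.92 each), NT5E to SLC12A8 (0.91), CD47 to CAMK2D (0.93), PVR to CCL26 (0.89), ICOSLG to ANKRD10 (0.86), CD276 to NPB (0.86), VSIR to AC072022.2 (0.95) and LGALS9 to FDCSP (0.73).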

How the data were processed

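RNA was measured in 33 libraries of 6 established cell lines. The authors prepared directional libraries, read them paired-end and, per the labels, used Trimmomatic 0.36, STAR 2.5.3 with GRCh38 and HTSeq 0.9.1. The strand setting of the counting is not given in the sources used here. The deposited values are a score (counts per 20000000 reads, rounded up) and not counts, so that the authors' count model (DESeq2) was not used. Here limma 3.58.1 (R 4.3.3, trend) was fitted to log2(CP20M + 10) over the 17803 genes that reached 100 CP20M in 1 library or more, which all 10 members did. Genes were called at a Benjamini-Hochberg FDR under 0.05 and a fold change above 1.5 or below 1/1.5, and F tests at the FDR alone. A fold change on this scale understates that of low genes. The experiment was a block, as the authors' methods pair treated and control cultures, and deviations within 13 pairs correlated across genes at r of 0.18 to 0.78. Washout fits had the line as a block. Columns add up to about 20000000, so a total is not a depth. Steps between low values gave 12770000 to 19830000 reads in 23 libraries, and the other 10 gave no estimate. Replicates had equal values at no more than 4.33% of genes. The functions were tested on simulated data. Alternatives were no block, pseudocounts of 1 and 50, other filters and scalings, no trend, a single fit, line means, and leaving out pairs and lines. Beyond the members, the text names genes of highest correlation and up to 2 called genes of each list with the largest fold change. Some list and marker genes are named for their levels only. The result of 1 gene list is not reported here. The members and lists were chosen with earlier results of these data known. Positions are from GENCODE 44, and figures from matplotlib 3.10.9.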

Additional observations from a re-analysis of the deposited data

Results flagged for a closer look

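The response to palbociclib differed among the 4 sensitive lines for 4 members by an F test of the interaction in limma. The adjusted p was 0.000394 for CD274, lower in H2052, H2452 and MSTO-211H and higher in H28. It was 0.0106 for PVR, which was higher in all 4 lines by different amounts. It was 0.0116 for NT5E, lower in the 3 H2452 pairs and higher in the other 8, and 0.0292 for PDCD1LG2, which was at 0 to 2 CP20M in H28. Without the block this was lost for PVR (limma adjusted p = 0.101) and NT5E (0.117). For PDCD1LG2 it was lost in 8 of 19 alternatives, with a limma adjusted p of up to 0.416 with a pseudocount of 1. Of all tested genes, 37.1% passed this test. Between sensitive and resistant lines, the response differed for PVR (limma adjusted p = 0.0239), against 1.13% of genes called higher and 5.62% called lower. This was lost without any 1 of the 3 resistant pairs (limma adjusted p 0.105 to 0.120) and with no filter (0.0511).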

How the results depend on the processing

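Of 810 values of single members under an alternative, 706 kept their direction and side of the threshold, 59 lost a call, 17 gained one and 28 changed sign, none of these with a call. These values cover 51 results. In single lines they leave out members not called there, other than CD274, so most calls gained in single lines are not counted. The resistant-line fits, the levels across lines and, between classes, all members but PVR and VSIR are also left out. Over the sensitive lines, the 4 members called higher became 2 with a pseudocount of 50, line means as units or H2452 left out, and 2 to 4 when single pairs were left out (2 without H2452 replicate 1 or 3). They became 5 with median-of-ratios or upper-quartile scaling, where CD276 was added (0.62 and 0.60). The 0 called lower became 1 (CD274) without H28. In single lines, the members called higher in H2052 (3) became 1 with no filter, 0 without trend and 5 with the filter within the fit, upper-quartile scaling or a single fit, and those called lower (1) became 0, 0 and 2 with no filter, no trend and the filter within the fit. In H2452, those called higher (1) became 3 with the filter within the fit, both scalings and a single fit (0 without replicate 1 or 3 and 2 without replicate 2), and those called lower (1) became 0 without the block, with a pseudocount of 50 and with the filter within the fit (0 without any of replicates 1, 2 and 3). In H28, 1 became 0 without the block, with a pseudocount of 50 or with no filter, 3 with median-of-ratios scaling, 2 in a single fit and 0 without any of replicates 1, 2 and 3. In MSTO-211H, 1 became 3 with the filter within the fit, 4 in a single fit (where 1 was lower) and 0 without any of replicates 1, 2 and 3. Between classes, 1 became 0 with no filter, 2 with both scalings, and 0 to 1 without single pairs (0 without MPP89 replicate 1 or 2 or MeT-5A replicate 1). Among lines, 4 became 1 without the block and 3 to 7 without single pairs (7 without MSTO-211H replicate 1), and washout against DMSO (1) gave 0 without the block, 3 with median-of-ratios scaling and 0 to 3 without single experiments (0 without H2052 replicate 2 or MSTO-211H replicate 3, 3 without H28 replicate 3). Sign changes of members without a call were, over the sensitive lines, CD47 (-0.0045 with line means, -0.096 without H2452, -0.031 without H28, -0.027 to 0.0747 without single pairs) and TNFSF9 (0.083 with median-of-ratios, 0.060 with upper-quartile scaling, 0.019 without H2052). For washout against palbociclib they were PDCD1LG2 (-0.28 with a pseudocount of 1, -0.060 and -0.11 with median-of-ratios and upper-quartile scaling) and CD47 (-0.12 and -0.18 with these scalings). Without single experiments the ranges were -0.055 to 0.15 for PDCD1LG2, -0.055 to 0.021 for PVR, -0.17 to 0.020 for NT5E, -0.24 to 0.051 for VSIR and -0.060 to 0.038 for TNFSF9. For washout against DMSO they were CD274 (-0.072 with a pseudocount of 50, -0.44 to 0.48 without single experiments), CD47 (0.084 and 0.015 with these scalings, -0.20 to 0.11) and TNFSF9 (-0.42 to 0.025). The cause of these changes was not tested. Few reads stand behind CD274 under DMSO and PDCD1LG2 in H28 and behind most LGALS9 values (median 21 CP20M), although LGALS9 reached 104 CP20M in MSTO-211H. Members under 100 CP20M within a line had no value with the filter within the fit.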
